A study of Mus musculus with 9 samples.

Results

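Sterol and fatty acid synthesis genes were followed through osteoblastic induction of MSC2, clonally derived stromal cells from mouse bone marrow. The set lists 32 genes by name, chosen with earlier results of these data known, and has no threshold on a measured value. It has 3 branches: 17 enzymes of the sterol pathway, 5 genes that control it or carry its product, and 10 enzymes that make or remodel fatty acids. On the arrays, 30 of the 32 had a probe set annotated to that gene and no other, each with 1 probe set, among 22180 genes compared. The sterol enzyme Idi1 shares its probe set with a gene model and the desaturase Scd2 shares its own with a microRNA gene. The expression of neither was analysed here, which left 16 sterol enzymes, 5 regulators and 9 fatty acid enzymes.

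There were 9 arrays, 3 for undifferentiated cells, 3 after 14 days and 3 after 28 days of induction. The source animals were 6-week-old C57BL/6 mice, and MSC2 is 1 clone, so it stands for no other marrow stromal cell. Undifferentiated cells grew in alpha-MEM lacking ascorbic acid with 10% serum. Induction began at confluence in DMEM with 10% serum, pyruvate at 1 mM, dexamethasone at 0.1 µM, ascorbate phosphate at 0.2 mM and beta-glycerophosphate at 10 mM. The design has no age-matched culture without induction, so induction, medium, confluence and time in culture cannot be told apart. The series text calls the replicates independent, but nothing says that they came from separate animals or cell stocks, so the p-values measure only the spread between these arrays, which may be technical.

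Cells build cholesterol from acetyl-CoA by way of mevalonate, the isoprenoid farnesyl diphosphate, squalene and lanosterol, and they build fatty acids from the same precursor by way of malonyl-CoA and palmitate. Both routes answer to the SREBP transcription factors, encoded by Srebf1 and Srebf2: when membrane sterol is plentiful, Insig proteins hold them in the endoplasmic reticulum, and when it is scarce they are cut free and switch on synthesis genes together with the factor NF-Y. In bone the mevalonate route is best known as the target of nitrogen-containing bisphosphonates, drugs that block the enzyme made by Fdps.

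Each value below is a log2 signal from which the gene's own median over the 9 arrays had been taken. A value of 0 therefore marks a gene's middle array, groups can be compared within a gene, and no gene's level can be set against another's. Differences were fitted with limma over all 22180 genes and called at a Benjamini-Hochberg adjusted p under 0.05, and all adjusted p-values below come from that fit. The comparisons with undifferentiated cells share their 3 undifferentiated arrays, and the 14-day arrays enter both the first and the last comparison. In the RNA of a whole culture, fewer cells of a type and less RNA per cell cannot be told apart.

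Promoter sequence was not used in choosing the members, and most of their promoters share the NF-Y box. Printed are 4 of them, for genes whose values carry the results below, to show the range. RefSeq (GRCm38.p6) windows from 250 bases before to 50 bases after a start site were found for 25 of the 32 listed genes. The NF-Y box, CCAAT on either strand, stood in the windows of 22 of these 25 genes (88%), against 41.1% of the 27025 genes with a window. By branch it was found for 14 of 14 sterol enzymes (among them Idi1, whose expression was not analysed), 4 of 4 regulators and 4 of 7 fatty acid enzymes. The SREBP-type element TCACNCCAC, searched on both strands, was found for 1 member, Hmgcs1, at position -137 from the start site, and for 1.44% of all genes. The E-box CACGTG was found for 4 of 25 members (16%) and 8.09% of all genes. A gene with several start sites was counted once if any window matched. Counted by window, the NF-Y box stood in 23 of 33 (69.7%) against 37.4% of 32851. By branch that was 14 of 17 windows of sterol enzymes, 5 of 8 of regulators and 4 of 8 of fatty acid enzymes. The upstream 250 bases are printed with NF-Y boxes and the SREBP-type element in capitals. Hmgcs1 holds the only SREBP-type match among the members, Nsdhl is the gene called in opposite directions at 14 and 28 days, Insig1 rose most among the members at 14 days, and Elovl6, which fell most in each comparison with undifferentiated cells, has no match in its window:
Hmgcs1 chr13:119690101-119690350 forward strand: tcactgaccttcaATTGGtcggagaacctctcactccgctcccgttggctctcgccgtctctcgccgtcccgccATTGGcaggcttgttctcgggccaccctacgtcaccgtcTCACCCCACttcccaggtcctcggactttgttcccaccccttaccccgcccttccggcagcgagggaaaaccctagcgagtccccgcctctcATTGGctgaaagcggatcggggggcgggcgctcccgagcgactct
Nsdhl chrX:72918271-72918520 forward strand: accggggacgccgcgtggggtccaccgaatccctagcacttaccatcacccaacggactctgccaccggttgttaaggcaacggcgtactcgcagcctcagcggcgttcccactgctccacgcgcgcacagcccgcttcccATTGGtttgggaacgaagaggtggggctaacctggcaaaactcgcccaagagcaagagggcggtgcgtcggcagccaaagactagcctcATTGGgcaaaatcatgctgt
Insig1 chr5:28071162-28071411 forward strand: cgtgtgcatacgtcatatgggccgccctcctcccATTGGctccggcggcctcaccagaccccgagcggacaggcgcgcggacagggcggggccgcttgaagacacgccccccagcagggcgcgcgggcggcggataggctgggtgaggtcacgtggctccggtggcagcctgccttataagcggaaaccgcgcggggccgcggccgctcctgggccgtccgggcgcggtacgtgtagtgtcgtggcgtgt
Elovl6 chr3:129532136-129532385 forward strand: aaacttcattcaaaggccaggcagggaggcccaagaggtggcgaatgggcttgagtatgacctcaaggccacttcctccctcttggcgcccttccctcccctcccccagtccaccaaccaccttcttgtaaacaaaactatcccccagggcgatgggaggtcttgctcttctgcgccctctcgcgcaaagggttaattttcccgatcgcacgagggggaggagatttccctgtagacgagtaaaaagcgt

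These matches describe letters in a window and are no measure of binding. In the printed stretch Hmgcs1 carries 3 NF-Y boxes, Nsdhl 2 and Insig1 1, and a further box lies just past the start of Hmgcs1 and 2 past that of Nsdhl. Sc5d and Dhcr7, which rose at 14 days, carry the NF-Y box, and so do Mvk and Pmvk, which fell.

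Taken as a branch, the sterol enzymes moved in both directions after induction and were lower at 28 days than at 14. At 14 days 8 of the 16 had risen and 4 had fallen, where 18.2% of all genes rose and 17.5% fell. Their median log2 difference was 0.14, beside 0.0048 over all genes. By 28 days 5 had risen and 7 had fallen, where 20.4% of all genes rose and 19.5% fell, and the median was -0.16 beside 0.017. Between 14 and 28 days 7 of 16 (43.8%) fell, where 4.67% of all genes fell and 2.72% rose, and the median was -0.18 beside 0.0018. No sterol enzyme rose in that interval by limma, 0 also at an unadjusted p under 0.05, by which 10 fell. All 16 of the later differences lay below 0, from -0.48 to -0.0055, although the smallest, that of Mvk, turned to 0.011 when the arrays were quantile normalized again, and those of Mvk, Mvd and Dhcr7 changed sign when single arrays were left out. An F test over the 3 groups called 15 of the 16 sterol enzymes, 3 of the 5 regulators and 7 of the 9 fatty acid enzymes, or 25 of 30 members, beside 39.2% of all genes.

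These counts depend on single arrays. The 7 sterol enzymes that fell between 14 and 28 days were 4 without replicate 1 of the 14-day group and 5 without its replicate 2. The 5 that stood above the undifferentiated state at 28 days were 3 without replicate 1 of the undifferentiated group, replicate 2 of the 14-day group or replicate 1 of the 28-day group, and the 4 that fell by 14 days were 2 without replicate 3 of the 14-day group. When the arrays were quantile normalized again, the split was 7 up and 1 down at 14 days and 2 up and 5 down at 28 days. Here and below, that step was applied to values already centred, and it forces one spread on arrays whose centred values differ in spread. The mean over the 16 enzymes was 0.12, 0.086 and 0.024 in the 14-day arrays, -0.096, -0.17 and -0.13 in the 28-day arrays, and -0.056, -0.029 and -0.034 in the undifferentiated arrays. The 14-day arrays were the highest of the 9 and the 28-day arrays the lowest, with no overlap between groups. Replicate 1 was its group's highest array for 11 of the 16 enzymes at 14 days, 9 at 28 days and 4 in undifferentiated cells.

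**Figure D1:**
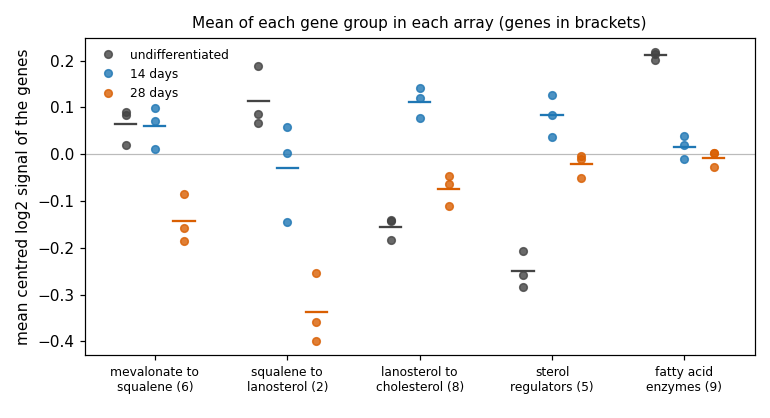
Mean centred log2 signal of 5 gene groups in each of the 9 arrays (points, coloured by group; bars, group means; number of genes in brackets). The enzymes from lanosterol to cholesterol sit highest at 14 days, those up to squalene and lanosterol lowest at 28 days, and the mean of the fatty acid enzymes, which Elovl6 and Me1 raise, sits highest in undifferentiated cells.

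Members of the branch are described in pathway order, divided at squalene and lanosterol, a division made after the values had been seen. The 6 genes from mevalonate precursors to squalene had medians of 0.084 at 14 days and -0.26 at 28 days against undifferentiated cells. Hmgcs1, which makes the HMG-CoA that enters the pathway, was the member with the largest fall between 14 and 28 days. For this gene the undifferentiated arrays held 0.020, 0 and -0.086, the 14-day arrays 0.22, 0.17 and 0.031 and the 28-day arrays -0.19, -0.48 and -0.36. Every 14-day array was above, and every 28-day array below, all undifferentiated ones. The rise by 14 days, 0.16 (SE 0.074), was not called (adjusted p = 0.136), while the fall from 14 to 28 days, -0.48 (SE 0.074), a level 1.39-fold lower, was called at an adjusted p of 0.00352 and was -0.75 after the arrays were quantile normalized again. At 28 days Hmgcs1 stood 1.25-fold below the undifferentiated state (adjusted p = 0.00547).

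The kinases that phosphorylate mevalonate, Mvk and Pmvk, fell early. For Pmvk the undifferentiated arrays held 0.21, 0.23 and 0.36, the 14-day arrays 0.029, -0.010 and 0 and the 28-day arrays -0.19, -0.25 and -0.26. The 3 groups formed separate steps downward, with differences of -0.26 by 14 days (adjusted p = 0.00143, but -0.16 after quantile normalization) and -0.24 from 14 to 28 days (adjusted p = 0.0139). The later call was lost without 14-day replicate 1 (adjusted p = 0.0599). Mvk fell by 14 days (-0.32 (SE 0.071), adjusted p = 0.00426) and then differed by -0.0055 between 14 and 28 days, with an interval of -0.16 to 0.15. Quantile normalization brought the adjusted p of Mvk to 0.052 at 14 days and 0.0584 at 28 days. The next enzyme, the decarboxylase Mvd, went the other way, with 0.23 at 14 days and 0.22 at 28 days against undifferentiated cells. Its undifferentiated arrays spread from -0.35 to -0.022, and both calls (adjusted p = 0.0326 and 0.0369) were lost after quantile normalization (0.14 at 28 days). The call at 14 days was also lost without undifferentiated replicate 1 or 2 or 14-day replicate 1, 2 or 3 (adjusted p = 0.0587 to 0.114). That at 28 days was lost without undifferentiated replicate 1 or 2, 14-day replicate 2 or 3 or 28-day replicate 1, 2 or 3 (adjusted p = 0.0517 to 0.122). Without undifferentiated replicate 1 the differences of Mvd were 0.15 and 0.14.

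Fdps, which makes farnesyl diphosphate, was called by the F test (adjusted p = 0.0382) but in none of the pairwise comparisons. In its case the undifferentiated arrays held 0, 0.074 and 0.037, the 14-day arrays 0.28, 0.16 and -0.039 and the 28-day arrays -0.029, -0.20 and -0.27. The 14-day arrays were spread widely, and their lowest lay below the highest 28-day array. The difference from 14 to 28 days was -0.30 (SE 0.084), with an adjusted p of 0.0609. That difference was called without 14-day replicate 3 or 28-day replicate 1 (adjusted p = 0.0207 to 0.0368). At 28 days Fdps stood at -0.20 from the undifferentiated state (adjusted p = 0.0827), which was called without 14-day replicate 3 or 28-day replicate 1 (adjusted p = 0.0313 to 0.0388). Fdft1, the squalene synthase, was the sterol enzyme that no test called, at 0.070, -0.11 and -0.18 in the 3 comparisons, although its 28-day arrays lay below its 14-day arrays without overlap.

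Sqle, the squalene epoxidase that is a main control point of the pathway, had the largest fall of any sterol enzyme at 28 days. Across the arrays of Sqle the undifferentiated arrays held 0.11, 0.17 and 0.26, the 14-day arrays 0.061, 0 and -0.11 and the 28-day arrays -0.42, -0.53 and -0.47. No groups overlapped, and the 28-day arrays lay far below the rest. The level at 28 days was 1.58-fold below the undifferentiated state, a difference of -0.66 (SE 0.057) at an adjusted p of 4.73e-06. Most of it came after 14 days (-0.46, adjusted p = 0.000939), and the earlier step of -0.20 (adjusted p = 0.0208) lost its call with quantile normalization and without undifferentiated replicate 3 or 14-day replicate 3 (adjusted p = 0.079 to 0.0856). Lss, which closes squalene epoxide into lanosterol, had also fallen by 28 days (-0.25, adjusted p = 0.0189), a call lost with quantile normalization and without undifferentiated replicate 3 or 28-day replicate 2 or 3 (adjusted p = 0.0629 to 0.0723). At 14 days Lss differed by -0.090 (adjusted p = 0.412).

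Of the 8 genes from lanosterol to cholesterol, 7 had risen at 14 days and 1 had fallen (18.2% and 17.5% of all genes), with a median of 0.27. By 28 days 4 of the 8 stood above and 2 below the undifferentiated state (20.4% and 19.5% of all genes), with a median of 0.13. Between 14 and 28 days 4 of 8 fell (4.67% of all genes). Dhcr7, the reductase that completes cholesterol, and Ebp, the sterol isomerase, had the largest rises, although after quantile normalization Tm7sf2 (0.54) and Sc5d (0.46) exceeded them at 14 days. For Dhcr7 the undifferentiated arrays held -0.48, -0.43 and -0.46, the 14-day arrays -0.0032, 0.016 and 0.098 and the 28-day arrays 0.00040, 0 and 0.074. All 6 induced arrays stood above the undifferentiated ones, and the 14-day and 28-day arrays overlapped. Dhcr7 was 1.41-fold higher at 14 days (log2 0.49 (SE 0.044), adjusted p = 6.67e-06) and 1.39-fold higher at 28 days (log2 0.48, adjusted p = 6.66e-06, and 0.29 after quantile normalization). The difference between 14 and 28 days was -0.012, with an interval of -0.11 to 0.086.

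Ebp behaved much alike, at -0.48, -0.31 and -0.44 in undifferentiated arrays, 0.18, 0.070 and 0 at 14 days and 0, -0.024 and 0.064 at 28 days. Here too the induced arrays were all higher than the undifferentiated arrays. The rise was 1.41-fold at 14 days (log2 0.49 (SE 0.061), adjusted p = 8.37e-05) and 1.34-fold at 28 days (log2 0.42, adjusted p = 0.000223, and 0.26 after quantile normalization). Tm7sf2, a sterol reductase that acts on the product of Cyp51, rose by 0.46 at 14 days (adjusted p = 0.000219) and stood 0.28 above the undifferentiated state at 28 days (adjusted p = 0.00556, but 0.16 at 0.169 after quantile normalization). Cyp51, the lanosterol demethylase, rose by 0.24 at 14 days (adjusted p = 0.0106), and its 0.18 at 28 days (adjusted p = 0.0431) lost its call after quantile normalization and without undifferentiated replicate 1 or 3, 14-day replicate 1 or 2 or 28-day replicate 1 (adjusted p = 0.0513 to 0.148).

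A rise by 14 days followed by a fall was seen in Msmo1, Sc5d and Nsdhl, within comparisons that share the 14-day arrays. Msmo1, a methylsterol oxidase, rose by 0.28 (adjusted p = 0.00176), fell by 0.21 on the log2 scale between 14 and 28 days (adjusted p = 0.0396) and ended 0.066 from the undifferentiated state (adjusted p = 0.386). Sc5d, a sterol desaturase, went up by 0.26 (adjusted p = 0.000538), then down by -0.19 (adjusted p = 0.0253), ending 0.076 away (adjusted p = 0.196). Both later falls lost their calls when only the compared groups were fitted. That of Msmo1 was also lost without undifferentiated replicate 1, 2 or 3, 14-day replicate 1, 2 or 3 or 28-day replicate 2 (adjusted p = 0.0553 to 0.142). That of Sc5d was lost without 14-day replicate 1, 2 or 3 or 28-day replicate 1 or 3 (adjusted p = 0.0669 to 0.0967). After quantile normalization the later falls were larger, at -0.38 and -0.41, as was the rise of Sc5d by 14 days, at 0.46.

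Nsdhl and Hsd17b7 encode a dehydrogenase and a reductase of the same demethylation step, and they moved differently. For Nsdhl the undifferentiated arrays held -0.017, 0.011 and 0, the 14-day arrays 0.18, 0.14 and 0.054 and the 28-day arrays -0.25, -0.31 and -0.24. The 14-day arrays were the highest and the 28-day arrays the lowest, with no overlap. Nsdhl rose by 0.13 (SE 0.044, adjusted p = 0.0456) and then fell to 1.20-fold below the undifferentiated state (log2 -0.26, adjusted p = 0.000634), a fall between 14 and 28 days of -0.39 (SE 0.044) at an adjusted p of 0.00052. The small rise did not keep its call when only the compared groups were fitted (adjusted p = 0.0579), or without undifferentiated replicate 1, 2 or 3, 14-day replicate 1 or 2 or 28-day replicate 1 or 3 (adjusted p = 0.0527 to 0.155). After quantile normalization the rise of Nsdhl was 0.24 and its later fall -0.60. In Hsd17b7, by contrast, the undifferentiated arrays held 0.28, 0.27 and 0.14, the 14-day arrays 0.066, 0 and -0.0033 and the 28-day arrays -0.33, -0.46 and -0.27. The groups descended without overlap. At 28 days Hsd17b7 lay -0.58 (SE 0.059) from the undifferentiated state on the log2 scale (adjusted p = 1.46e-05). Its first step, -0.21 at 14 days, had an adjusted p of 0.018, which became 0.321 (at -0.12) after quantile normalization. That call was also lost without undifferentiated replicate 1 or 2 or 14-day replicate 2 or 3 (adjusted p = 0.061 to 0.066).

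**Figure D2:**
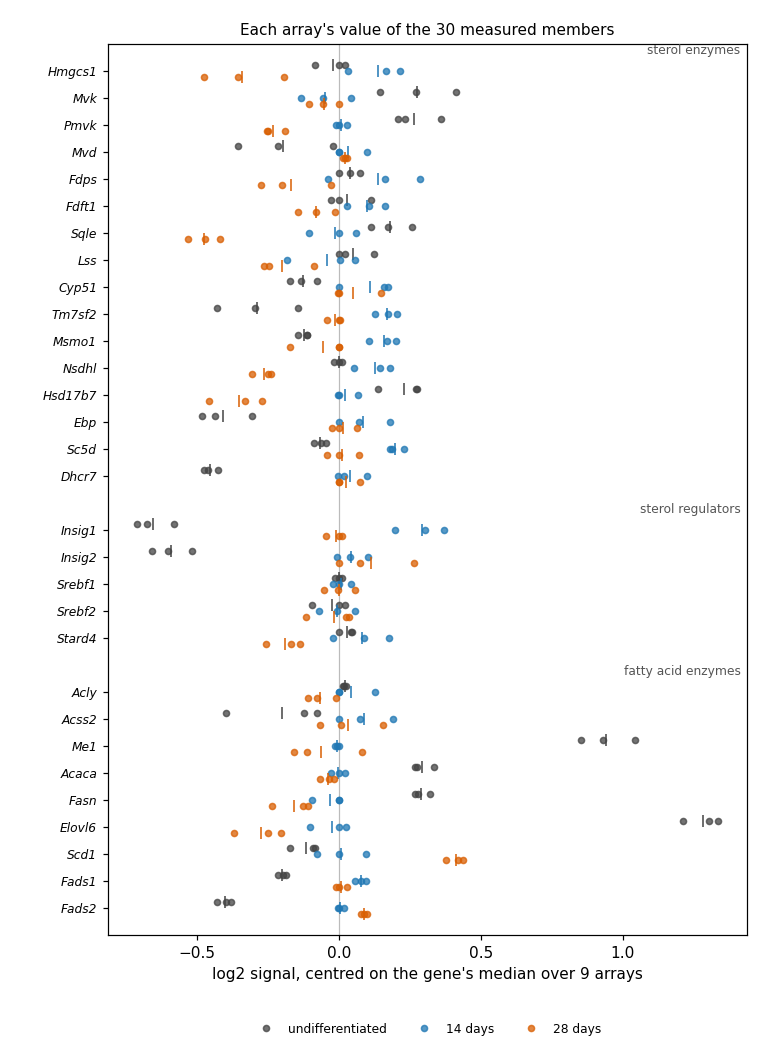
Centred log2 signal of each of the 30 measured members in each of the 9 arrays (points, coloured by group; short bars, group means), in pathway order within the 3 branches. Insig1, Insig2, Dhcr7 and Ebp sit lowest in undifferentiated cells, Me1 and Elovl6 highest, and Sqle and Hsd17b7 lowest at 28 days.

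Among the 5 regulators, Insig1 and Insig2 rose at both times, Srebf1 and Srebf2 were not called in any comparison, and Stard4 fell late. Insig1, a retention protein whose gene is itself an SREBP target, had the largest rise of any member at 14 days. In Insig1 the undifferentiated arrays held -0.71, -0.68 and -0.58, the 14-day arrays 0.30, 0.37 and 0.20 and the 28-day arrays 0, 0.012 and -0.046. All 14-day arrays exceeded all 28-day arrays, and both exceeded the undifferentiated ones. Insig1 was 1.93-fold higher at 14 days (log2 0.95 (SE 0.054), adjusted p = 2.33e-07) and 1.56-fold higher at 28 days (adjusted p = 3.54e-06), after a fall of -0.30 (SE 0.054) in between (adjusted p = 0.00769). After quantile normalization it stood 0.36 above the undifferentiated state at 28 days, after a fall of -0.70. For Insig2, which does the same task, the undifferentiated arrays held -0.60, -0.66 and -0.52, the 14-day arrays 0.10, -0.0086 and 0.038 and the 28-day arrays 0, 0.27 and 0.074. The induced arrays were all higher and overlapped each other. Its rise was 1.55-fold at 14 days (log2 0.64 (SE 0.069), adjusted p = 3.19e-05, and 0.41 after quantile normalization) and 1.63-fold at 28 days (adjusted p = 1.19e-05).

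The transcription factor genes stayed within narrow intervals. Srebf1 differed by 0.0076 at 14 days, with a 95% interval of -0.086 to 0.10, and by 0.00070 at 28 days, with an interval of -0.093 to 0.094. For Srebf2 the intervals were -0.11 to 0.14 and -0.12 to 0.13. The adjusted p-values of both genes lay between 0.862 and 0.993, and the arrays of the 3 groups overlapped. These are transcript signals and hold nothing on the cut, active form of the factors. Stard4, which carries cholesterol between membranes, held 0.043, 0 and 0.044 in undifferentiated arrays, 0.087, 0.18 and -0.023 at 14 days and -0.14, -0.17 and -0.26 at 28 days. Its 28-day arrays were below all others, at -0.22 from the undifferentiated state (adjusted p = 0.00963, and 0.0918 after quantile normalization). The fall after 14 days, -0.27, had an adjusted p of 0.0172 and lost its call without 14-day replicate 1 or 2 or 28-day replicate 3 (adjusted p = 0.0596 to 0.0661).

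Fatty acid enzymes moved in both directions. At 14 days 3 of the 9 had risen and 4 had fallen (18.2% and 17.5% of all genes), with a median log2 difference of 0.022, and at 28 days the counts were again 3 and 4 (20.4% and 19.5% of all genes), with a median of -0.087. Between 14 and 28 days 1 rose and 1 fell (2.72% and 4.67% of all genes), with a median of -0.058. The members that fell were Acaca and Fasn of palmitate synthesis, Me1 of its reducing power and Elovl6 of its elongation. Those that rose were the desaturases Fads1 and Fads2 at both times, with Acss2 at 14 days and Scd1 at 28 days. This grouping by step was made after the values had been seen, and Acly, of an earlier step, was not called. Elovl6, which lengthens palmitate to stearate, had the largest difference from undifferentiated cells of any member at both times, although at 14 days this order did not hold after quantile normalization, when Elovl6 was at -0.70 and Insig1 at 1.06. Its arrays give 1.30, 1.21 and 1.33 in undifferentiated cells, 0, 0.024 and -0.10 at 14 days and -0.25, -0.21 and -0.37 at 28 days. Undifferentiated arrays were far above the rest, and the 14-day arrays were all above the 28-day arrays. Elovl6 was 2.48-fold lower at 14 days (log2 -1.31 (SE 0.058), adjusted p = 3.3e-08) and 2.95-fold lower at 28 days (log2 -1.56 (SE 0.058), adjusted p = 6.67e-09). The later step of -0.25 (adjusted p = 0.0289) lost its call without 14-day replicate 1 or 2 or 28-day replicate 1 or 3 (adjusted p = 0.0579 to 0.111).

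Me1, the malic enzyme that supplies NADPH, followed with 1.04, 0.93 and 0.85 in the undifferentiated arrays, -0.015, -0.0065 and 0 at 14 days and -0.11, 0.080 and -0.16 at 28 days. Its induced arrays lay together, well below the undifferentiated ones. Me1 was 1.93-fold lower at 14 days (log2 -0.95 (SE 0.068), adjusted p = 1.31e-06) and 2.01-fold lower at 28 days (log2 -1.01, adjusted p = 6.74e-07). After quantile normalization the differences of Me1 were smaller, -0.52 (adjusted p = 0.000582) and -0.58 (adjusted p = 0.000206). Fasn, the fatty acid synthase, fell less, by -0.32 at 14 days (SE 0.048, adjusted p = 0.000345) and -0.45 at 28 days (adjusted p = 2.48e-05). The 3 undifferentiated Fasn arrays, at 0.27, 0.28 and 0.32, were all above the highest induced array, at 0. Acaca, the acetyl-CoA carboxylase that makes malonyl-CoA, fell by -0.30 (adjusted p = 0.000133, and -0.19 after quantile normalization) and -0.33 (adjusted p = 4.62e-05).

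Upstream of these enzymes, the citrate lyase gene Acly was not called in any comparison, at 0.022 at 14 days with an interval of -0.084 to 0.13 and -0.087 at 28 days with an interval of -0.19 to 0.019. Acss2, which makes acetyl-CoA from acetate, rose by 0.29 at 14 days (SE 0.090, adjusted p = 0.0299). That call rests on an uneven undifferentiated group, at -0.40, -0.079 and -0.12, and was lost after quantile normalization and without undifferentiated replicate 1 or 14-day replicate 1 or 2 (adjusted p = 0.0671 to 0.114). Without undifferentiated replicate 1 the difference of Acss2 was 0.19. At 28 days Acss2 stood at 0.23 (adjusted p = 0.0688), which was called without undifferentiated replicate 2 (adjusted p = 0.0419).

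The measured desaturases among the members rose. Fads2 carries out the first desaturation step in the synthesis of long-chain polyunsaturated fatty acids. It held -0.38, -0.40 and -0.43 in undifferentiated arrays, 0, 0.017 and -0.0049 at 14 days and 0.077, 0.10 and 0.089 at 28 days. The groups ascended without overlap and with little spread, but the step of Fads2 from 14 to 28 days, 0.084, was not called (adjusted p = 0.222). Fads2 was 1.33-fold higher at 14 days (log2 0.41 (SE 0.036), adjusted p = 6.49e-06, and 0.26 after quantile normalization) and 1.41-fold higher at 28 days (adjusted p = 1.24e-06). Fads1, which acts after it, rose by 0.28 (adjusted p = 0.000126) and 0.21 (adjusted p = 0.000897, and 0.14 after quantile normalization). A related desaturase outside the set, Fads3, fell by -0.56 (adjusted p = 3.87e-06) and -0.63 (adjusted p = 1.34e-06). Scd1, which makes oleate from stearate, was the late one. For Scd1 the undifferentiated arrays held -0.093, -0.17 and -0.084, the 14-day arrays 0, 0.095 and -0.079 and the 28-day arrays 0.38, 0.44 and 0.42. All 28-day arrays stood clear above the other 6. The difference of 0.12 (SE 0.051) at 14 days was not called (adjusted p = 0.0976) except without 14-day replicate 3 (adjusted p = 0.0395). Scd1 rose 1.32-fold from 14 to 28 days (log2 0.41 (SE 0.051), adjusted p = 0.00105) and was 1.44-fold higher at 28 days than in undifferentiated cells (adjusted p = 1.13e-05).

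**Figure D3:**
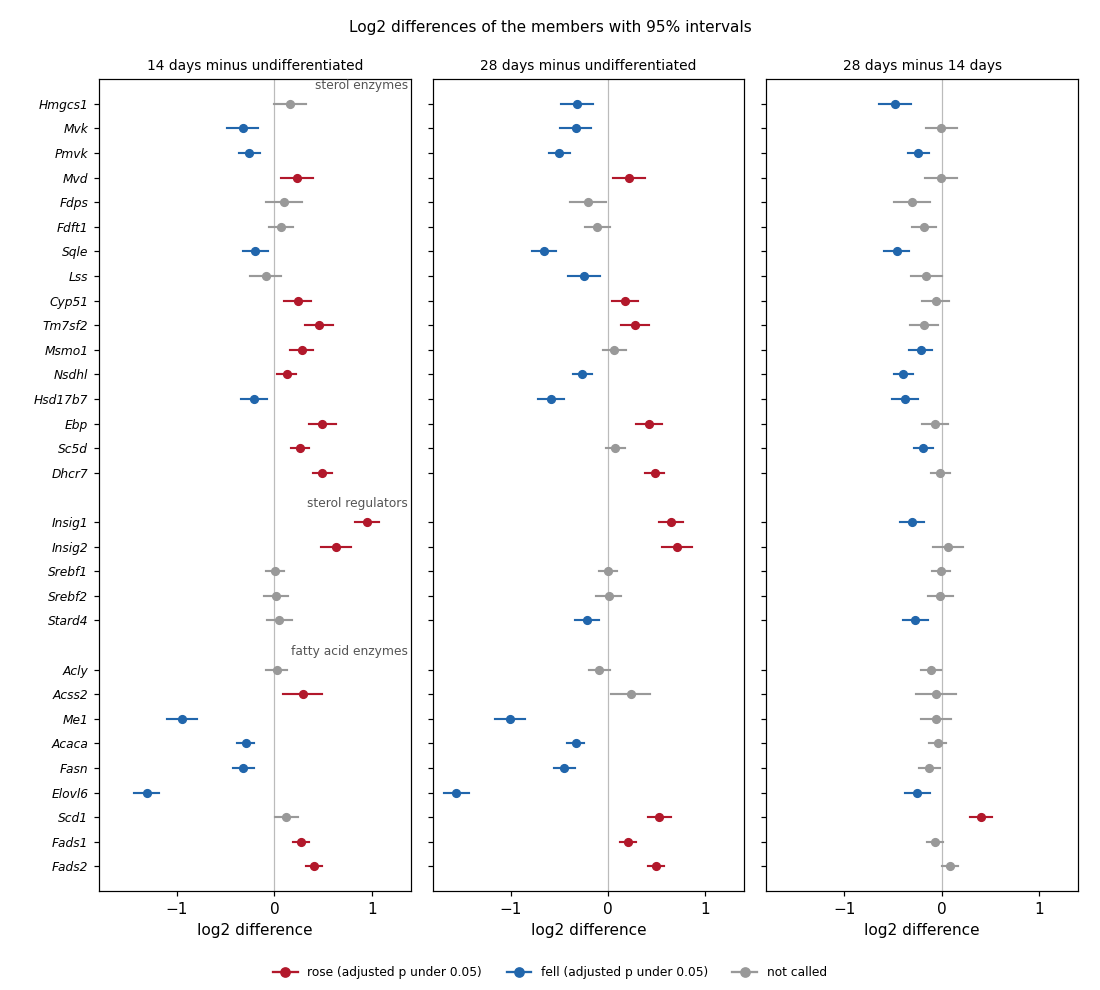
Log2 difference of each of the 30 members in the 3 comparisons (points) with its 95% interval (lines), coloured by whether limma's adjusted p was under 0.05 and in which direction. In the right panel 10 of the 11 called members lie below 0 and Scd1 above it.

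Set side by side, the branches differed in their medians by 0.12 at 14 days (sterol enzymes higher), -0.069 at 28 days and -0.13 between 14 and 28 days (sterol enzymes lower). These differences were not tested, since genes of a branch are not replicates. Centred array means can be compared between groups within a branch, not between branches. The fatty acid enzymes averaged 0.20 to 0.22 in undifferentiated arrays, -0.010 to 0.039 at 14 days and -0.028 to 0.0024 at 28 days. The undifferentiated means rest on Elovl6 and Me1: over the other 7 enzymes, a grouping made after the values were seen, the means were -0.075 to -0.030 in undifferentiated arrays, 0.0016 to 0.048 at 14 days and 0.021 to 0.055 at 28 days, so that the undifferentiated arrays were the lowest. The medians over all 9 enzymes overlapped, at 0.015 to 0.026 in undifferentiated arrays and 0 to 0.017 at 14 days. Over all 30 members, 13 rose and 8 fell at 14 days (18.2% and 17.5% of all genes), 10 rose and 12 fell at 28 days (20.4% and 19.5%), and 1 rose and 10 fell between 14 and 28 days (2.72% and 4.67%). The last count of 11 calls was 6 without replicate 1 of the 14-day group and 7 without its replicate 2. Leaving out arrays one at a time removed 5 of the 21 calls at 14 days, 3 of the 22 at 28 days and 5 of those 11. Differences were small. Tested in limma against a 1.5-fold change, Insig1, Me1 and Elovl6 were called at 14 days (7.13% of all genes), Me1 and Elovl6 at 28 days (9.06%), and 0 members between 14 and 28 days (0.126%), where 0 also passed at an unadjusted p under 0.05.

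Other genes of sterol metabolism were taken from lists chosen by function, with earlier results of these data known. Their shares are set beside those of all genes as description only. Of 6 measured genes of related synthesis and SREBP processing, 2 rose and 1 fell at 14 days, and 2 rose and 2 fell at 28 days, beside 18.2% and 17.5% of all genes at 14 days and 20.4% and 19.5% at 28 days, which is the background for each list that follows. Ggps1, which draws farnesyl diphosphate off to geranylgeranyl diphosphate, rose by 0.59 (adjusted p = 2.27e-06) and 0.43 (adjusted p = 1.95e-05), beside the uncalled Fdps. Aacs, which feeds ketone bodies into the pathway, fell by -0.25 and -0.50, and again by -0.25 between 14 and 28 days (adjusted p = 0.00881). Rnf139, a ubiquitin ligase of the endoplasmic reticulum that binds Insig proteins, rose by 0.29 and 0.39. Of the genes that handle the SREBP precursors, Scap (at 0.015 and 0.14) and the protease Mbtps1 (0.043 and 0.039) were not called, while the protease Mbtps2 was at -0.15 at 28 days (adjusted p = 0.0289).

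Genes of sterol uptake, export, storage and oxidation more often rose than fell: 9 of 16 rose (56.2%, beside 18.2% of all genes) and 1 fell at 14 days, and 10 rose (62.5%, beside 20.4%) and 1 fell at 28 days, with medians of 0.23 and 0.26. Between 14 and 28 days 1 rose and 1 fell (6.25% each, beside 2.72% and 4.67% of all genes). Cyp27a1, which oxidizes cholesterol to an oxysterol, rose 4.71-fold at 14 days and 4.72-fold at 28 days (adjusted p = 1.47e-08 and 1.01e-08). Abca1, the exporter of cellular cholesterol, rose 2.47-fold and 2.44-fold (adjusted p = 2.81e-08 and 2.31e-08). In Abca1 the undifferentiated arrays held -1.31, -1.20 and -1.23, the 14-day arrays 0.11, 0.043 and 0.030 and the 28-day arrays 0.16, -0.024 and 0, so that the induced arrays lay together and apart from the undifferentiated ones. Apoe, which carries exported cholesterol, rose 1.80-fold by 14 days and 2.82-fold by 28 days, with a further 0.65 between them (adjusted p = 0.00721). Npc2, the lysosomal cholesterol carrier, rose 1.57-fold and 1.59-fold. Scarb1, a receptor for high-density lipoprotein, was the 1 that fell, by -0.33 and -0.56. Named after their values were seen, Nr1h3, which encodes the oxysterol receptor LXR-alpha, rose by 0.56 at both times (adjusted p = 1.41e-05 and 1.24e-05), while Abcg1, another target of that receptor, was at 0.027 and 0.0090 and was not called.

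**Figure D4:**
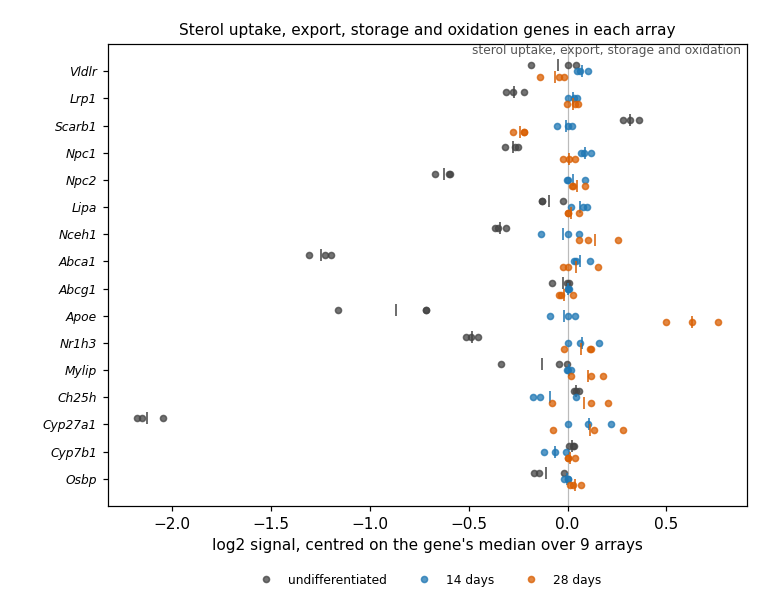
Centred log2 signal of the 16 measured genes of sterol uptake, export, storage and oxidation in each of the 9 arrays (points, coloured by group; short bars, group means). Cyp27a1 and Abca1 sit lowest in undifferentiated cells with the induced groups together, Apoe climbs in 2 steps, and Scarb1 descends.

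In the wider list of fatty acid and glycerolipid genes, 12 of 25 rose (48%, beside 18.2% of all genes) and 6 fell (24%, beside 17.5%) at 14 days, and 10 rose (40%, beside 20.4%) and 7 fell (28%, beside 19.5%) at 28 days, so that the share that fell was not far from the background. Lpin1, a phosphatidate phosphatase on the way to triglyceride, rose 4.60-fold and 4.75-fold (adjusted p = 4.02e-10 and 1.99e-10), and Dgat2, which adds the last acyl chain, rose 1.63-fold and 1.65-fold. The dehydratases of fatty acid elongation split: Hacd3 rose by 1.00 and 1.01, while Hacd1 fell by -0.56 and -0.92, beside the falls of Elovl6 and Fads3. Between 14 and 28 days 2 rose (8%, beside 2.72% of all genes), Gpam (0.37) and Scd4 (0.29), the latter a stearoyl desaturase like Scd1. In that interval 4 fell (16%, beside 4.67%), led by Hacd1 (-0.36) and Hsd17b12 (-0.21), the reductase of elongation.

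Some markers of other cell states also differed between the groups. Of 9 measured genes of dividing cells all 9 fell in each comparison, beside 17.5%, 19.5% and 4.67% of all genes. Plk1 (-2.25 and -3.25) and Bub1 (-2.14 and -3.29), both mitotic kinases, led. The medians of the 9 genes were -1.92 at 14 days, -2.77 at 28 days and -0.84 between 14 and 28 days. Their mean per array was 1.75 to 1.76 in undifferentiated cells, -0.044 to 0.034 at 14 days and -0.81 in each 28-day array. Their part in the falls of Elovl6, Me1, Fasn, Sqle or the late sterol enzymes was not tested. Of 11 adipocyte genes 5 rose and 0 fell at both times by limma (0 fell also at an unadjusted p under 0.05), with means per array of -0.51 to -0.50 in undifferentiated cells, -0.0078 to 0.043 at 14 days and 0.029 to 0.11 at 28 days. Fabp4 led with 3.50 and 3.63, followed by Lipe (0.71 and 0.87), Pnpla2 (0.58 and 0.64) and Lpl (0.42 and 0.71), while the defining genes Pparg (-0.036 and -0.067), Adipoq (0.080 and 0.036) and Plin1 (-0.084 and -0.016) were not called. Their part in the rise of Scd1, Lpin1 or Dgat2 was not tested.

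Of 10 macrophage genes, 3 rose at 14 and at 28 days (Cd14, Csf1r and Cd68), which is 30% beside 18.2% and 20.4% of all genes, and Ptprc, the pan-leukocyte gene, was at 0.042 and -0.0057 and not called. Their part in the rise of Abca1 and Apoe, which macrophages also use, was not tested. Of the 10 osteoblast genes that check the label, 3 rose and 1 fell at each time, likewise 30% and 10%. Of all genes 18.2% rose and 17.5% fell at 14 days, and 20.4% rose and 19.5% fell at 28 days. Omd (1.42 and 1.51), Pth1r (0.66 and 1.03) and Alpl (0.50 and 0.46) rose and Col1a1 fell (-0.26 and -0.39). Sp7 (-0.051 and 0.019), Ibsp, Bglap and Dmp1 were not called. Of 12 stromal markers 4 rose and 4 fell (33.3% each, beside 18.2% and 17.5% of all genes) at 14 days. At 28 days 4 rose (33.3%, beside 20.4%) and 3 fell (25%, beside 19.5%). Among them Nt5e (2.21 and 2.70) and Pdgfra (1.27 and 1.42) rose, and Cd44 (-2.29 and -2.59) and Cxcl12 (-0.87 and -0.92) fell. Since the values are centred, whether any of these genes lay at background cannot be given.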

How the data were processed

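Biotin-labelled RNA of 9 samples was measured on expression arrays. The deposited values are log2 signals made by the authors with RMA, per the submitters' processing notes, its software and version being not given in the sources used here. Base 2 is taken from RMA. The centring of each of 33794 probe sets on its median over the 9 arrays was read from the deposited values, the median of each array is 0, and the direction (higher for more RNA) is assumed. RNA integrity numbers averaged 9.9, per the labels.

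Of the probe sets 23521 have 1 gene, 1814 several and 8459 none in the annotation table, and 23328 matched RefSeq (GRCm38.p6) by Entrez number. Probe sets of a gene were averaged, giving 22180 genes. The fit used limma 3.58.1 (R 4.3.3) with 1 mean per group (6 residual and 3.81 prior degrees of freedom) and Benjamini-Hochberg adjustment, and the fit was tested on simulated data. For arrays, their number limits the precision. All members were named. From each related list, up to 4 called genes with the largest difference per comparison were taken, and from marker lists the largest and the defining genes. Members and lists were chosen with earlier results of these data known. For the names on these lists that have no probe set of their own, expression was not analysed here. Motifs were counted on both strands, with overlapping matches of different motifs counted for each. Alternatives were another normalization, other probe set rules, thresholds, filters and fits, and leaving out each array.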

Additional observations from a re-analysis of the deposited data

Results flagged for a closer look

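For 11 members the difference from the undifferentiated state was not the same at 14 and at 28 days by the direct limma comparison of those groups. The log2 difference, 28 minus 14 days, was -0.48 for Hmgcs1, -0.46 for Sqle, -0.39 for Nsdhl, -0.37 for Hsd17b7, -0.30 for Insig1 and 0.41 for Scd1, and these 6 calls stood with any single array left out. It was -0.24 for Pmvk, -0.21 for Msmo1, -0.19 for Sc5d, -0.27 for Stard4 and -0.25 for Elovl6, whose calls did not.

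Groups of 3 arrays were not screened for outlying samples.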

How the results depend on the processing

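Main counts of called members are 21 at 14 days, 22 at 28 days and 11 between them. Tested against a 1.5-fold change they were 3, 2 and 0 (0 also at an unadjusted p under 0.05), and at an adjusted p under 0.01 the last was 6. With single arrays left out the last ranged from 6 to 10. The difference between branch medians moved from 0.12 to 0.20 at 14 days and from -0.13 to -0.21 between 14 and 28 days when the arrays were quantile normalized again, and to 0.23 at 14 days with the 25% of genes of least variance left out, which tested 27 members. Quantile normalization forces one spread on arrays whose centred values differ in spread, and the cause of the moves was not tested. With the replicate number as a block (replicate block) the members called were 20, 22 and 10. Same-numbered arrays did not deviate together (correlations of -0.14 to 0.068), so the block reads only as another fit. Every measured member has 1 probe set, so the rules for several probe sets could not change its values. They and robust moderation left the called members as they were, and a trend in the moderation was not run, since centred values have no level.

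Differences of single members that changed sign were all uncalled. After quantile normalization Srebf1 was at -0.0053 and Srebf2 at -0.011 at 28 days, and Mvk at 0.011 between 14 and 28 days. With single arrays left out, the ranges that crossed 0 were, at 14 days, -0.010 to 0.022 for Srebf1, -0.016 to 0.050 for Srebf2 and -0.020 to 0.043 for Acly. At 28 days they were -0.027 to 0.028 for Srebf1 and -0.029 to 0.055 for Srebf2. Between 14 and 28 days they were -0.048 to 0.041 for Mvk, -0.027 to 0.022 for Mvd, -0.037 to 0.019 for Dhcr7, -0.0064 to 0.13 for Insig2, -0.035 to 0.020 for Srebf1 and -0.044 to 0.036 for Srebf2.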

Other observations

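Genes of fatty acid oxidation, the route that undoes the work of the synthesis enzymes, were measured on the same arrays. Of 17 genes, 6 rose (35.3%, beside 18.2% of all genes) and 3 fell (17.6%, beside 17.5%) at 14 days, with a median log2 difference of 0.095. At 28 days 6 rose (beside 20.4%) and 3 fell (beside 19.5%), with a median of 0.14, so the share that fell was near the background at both times. Between 14 and 28 days limma called 0 of them, where 2.72% of all genes rose and 4.67% fell. At an unadjusted p under 0.05 3 were higher and 1 was lower. Ppargc1a, a coactivator of mitochondrial genes, rose 3.63-fold at 14 days and 4.31-fold at 28 days (adjusted p = 2.47e-08 and 7.05e-09 by limma). Slc25a20, the mitochondrial carnitine carrier, rose 1.49-fold and 1.48-fold, and the dehydrogenase Acadm rose by 0.38 and 0.44. Cpt1a, the gatekeeper of fatty acid entry into mitochondria, rose by 0.34 and 0.45, and the hydratase Echs1 rose by 0.36 and 0.43. The 3 that fell at both times were Etfb (-0.33 and -0.25), which passes electrons from these dehydrogenases, the dehydrogenase Acadl (-0.21 and -0.42) and Cpt1c (-0.23 and -0.21).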
